A study of Homo sapiens with 3 samples.

Results

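The proteasome genes described here were all genes of the table whose symbol begins with PSMA to PSMG followed by a number, leaving out symbols with a hyphen. Of 20332 genes in the table, 50 met this rule. They were followed in HCC827, an established human lung adenocarcinoma line driven by a mutant EGFR. The cells had received DMSO, the vehicle, or 1 of 2 compounds, called compound 1 and compound 2 in the labels, each at 5 μM for 24 h. The series title describes the compounds as daphnane diterpenoids and ties them to the DNA damage response under ATR. There was 1 library per condition, a time was not given for the DMSO library, and everything below is a difference between single libraries with no replicate error.

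The proteasome is the protease that degrades proteins tagged with ubiquitin. Its barrel, the 20S core, has outer rings of alpha subunits, which gate the entrance, and inner rings of beta subunits, of which PSMB5, PSMB6 and PSMB7 carry the catalytic sites. The 19S regulatory particle caps the barrel. Its base holds a ring of ATPases that unfold the substrate, and its lid removes the ubiquitin chain. In immune cells, and in other cells under interferon gamma, PSMB8, PSMB9 and PSMB10 replace the 3 catalytic beta subunits to form the immunoproteasome, which favours peptides for presentation on class I molecules. Dedicated chaperones build the particle. When proteasome activity is short, the transcription factor NFE2L1 raises the genes of the whole complex.

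Values were in TPM, transcripts per 1000000 transcripts, a length-corrected share of the library. In such bulk samples fewer cells of a type and less RNA per cell cannot be told apart. Of the 50 genes, 48 reached a mean of 1 TPM over the 3 libraries, the level required for a ratio, and were above 8 TPM in every library. PSMA8, the testis form of an alpha subunit, and PSMB11, the beta subunit of the thymus, were listed at 0 in all 3 libraries. Epithelial markers fitted the label, since EPCAM, KRT8, KRT18, KRT19 and CDH1 were all measured and summed to 13417 TPM in the DMSO library. They summed to 6144 TPM after compound 1 and 5256 TPM after compound 2. The 3 keratins were lower after each compound, while EPCAM was at 611, 778 and 695 TPM and CDH1 at 179.6, 268 and 228 TPM. The lung markers NKX2-1, NAPSA and SFTPB summed to 296, 97.2 and 88.4 TPM in the same order, with SFTPB at most 0.186 TPM. The part of this difference in the results below was not tested. Fibroblast and endothelial markers summed to at most 2.00 TPM and 0.336 TPM.

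The 48 measured genes together made up 1.16% of all TPM under DMSO, 1.14% under compound 1 and 1.18% under compound 2. Their median level was 188, 189 and 188 TPM in the DMSO, compound 1 and compound 2 libraries. Levels ranged widely among subunits that the assembled particle holds in equal number. Among the 14 constitutive core subunits of the DMSO library, the lowest was PSMB2 at 83.1 TPM and the highest PSMB3 at 1124 TPM, which is 13.5 times as much. The same 2 genes stood at the ends after either compound, 9.45 times apart after compound 1 and 9.27 times after compound 2.

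**Figure D1:**
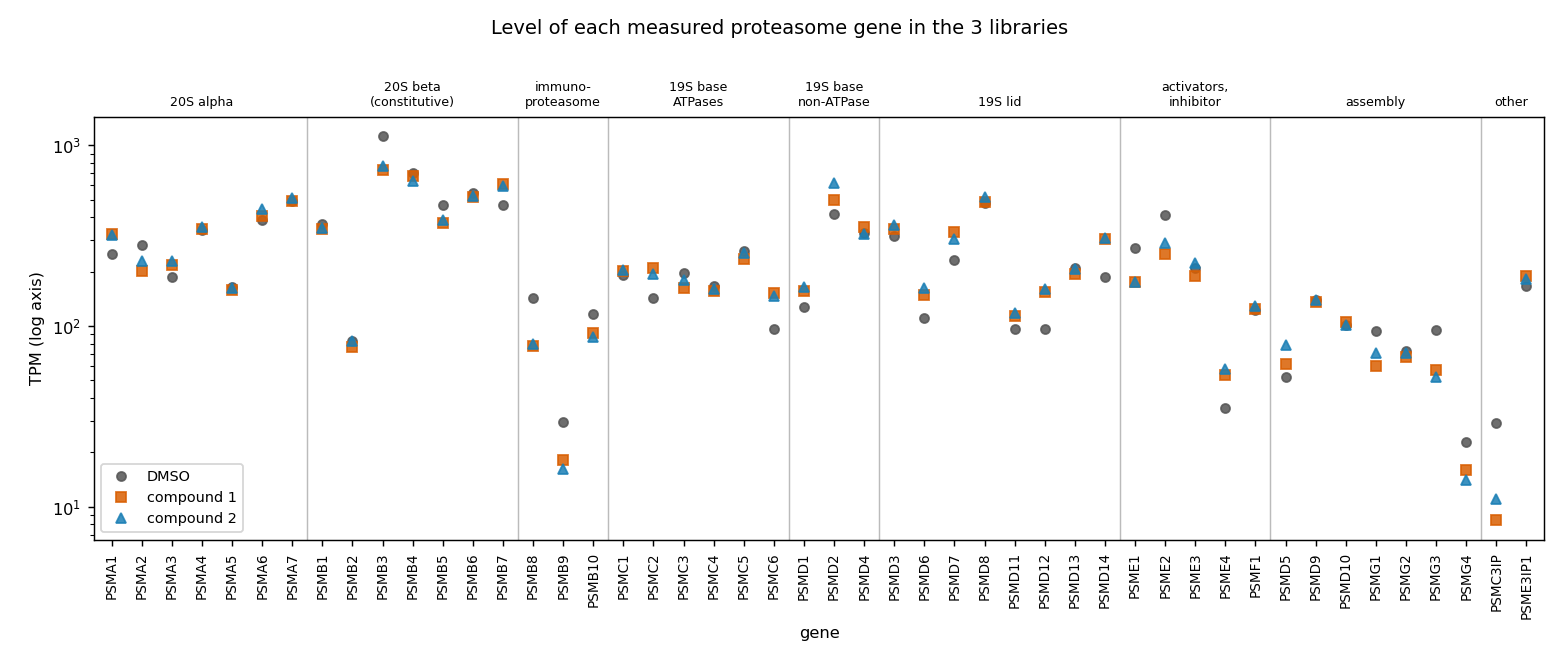
Level in TPM (log axis) of each of the 48 measured proteasome genes, grouped by role, with 1 point per library for DMSO, compound 1 and compound 2. Most genes have their 3 points close together, while PSMB8, PSMB9, PSMB3, PSME1, PSME2, PSMG3 and PSMC3IP are highest in the DMSO library and PSMD14, PSMD12, PSMC6 and PSME4 are lowest there.

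The first comparison set compound 1 against DMSO. Ratios are log2 ratios of TPM + 1, and a gene is called when it passes 1.5-fold. Of the proteasome genes, 4 of 48 (8.33%) were at least 1.5-fold higher, where 28.2% of the 11600 genes measured were. At least 1.5-fold lower were 8 of 48 (16.7%), against 18% of all genes. Past 2-fold in either direction was 1 of 48 (2.08%), against 22.8% of all genes, and that gene, PSMC3IP, encodes no proteasome subunit. The median log2 ratio of the 48 was -0.02, beside 0.11 for all genes. The 4 higher genes were PSMD14, PSMD12 and PSMC6 of the 19S particle and the activator PSME4. The 8 lower ones were PSMB3, PSMB8, PSMB9, PSME1, PSME2, PSMG1, PSMG3 and PSMC3IP.

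The second comparison, compound 2 against DMSO, used the same DMSO library. At least 1.5-fold higher were 5 of 48 genes (10.4%), against 25.6% of all genes, and 6 of 48 (12.5%) were at least 1.5-fold lower, against 15.8%. Past 2-fold was 1 of 48 genes (2.08%), PSMC3IP, a level that 19.2% of all genes passed. The median was 0.00, beside 0.09 for all genes. The 5 higher genes were PSMD12, PSMD14, PSME4, PSMC6 and the chaperone PSMD5, and the 6 lower ones PSMG3, PSMB8, PSMB9, PSMG4, PSME1 and PSMC3IP. Because the comparisons share a control library, a common direction of a gene in them is not independent.

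**Figure D2:**
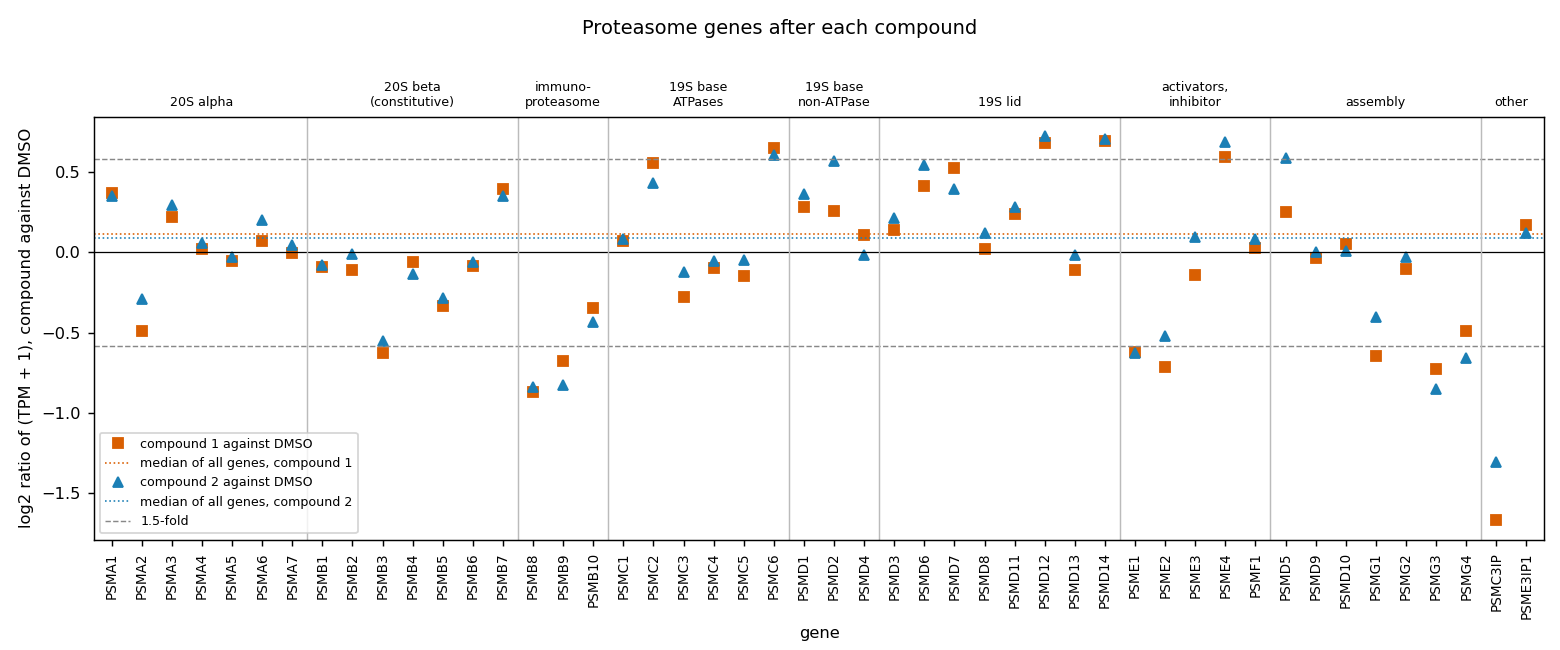
Log2 ratio of TPM + 1 for each measured proteasome gene, compound 1 (squares) and compound 2 (triangles) against DMSO, grouped by role, with dashed lines at 1.5-fold and dotted lines at the median of all 11600 genes. The 19S lid lies mostly above 0 with PSMD14 and PSMD12 past the upper line, the immunoproteasome and PSMG genes lie below 0, and PSMC3IP is lowest.

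Ratios varied with the composition of the transcripts, over the whole table and among the proteasome genes. Over all genes split into 20 bins of GC content, the bin with a median GC of 35.5% had a median log2 ratio of 0.76 after compound 1, and the bin at 65.5% had -0.31. After compound 2 the same bins were at 0.66 and -0.28. Over the 48 proteasome genes, Spearman's rho between log2 ratio and the GC content of the longest transcript was -0.53 after either compound. Over 11542 genes it was -0.39. With transcript length it was 0.35 after compound 1 and 0.43 after compound 2 over the 48, and 0.30 and 0.32 over all. These genes share their libraries and are not independent points. Ratios of the main classes and of many single genes are therefore also given after subtracting the medians of bins of length and then of GC content, taken either from the longest transcript of each gene or from its principal transcript in the APPRIS annotation. The subtraction sets the median of all genes to 0, a shift of 0.11 after compound 1 and 0.09 after compound 2. Whether composition contributes to any single ratio was not tested.

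**Figure D3:**
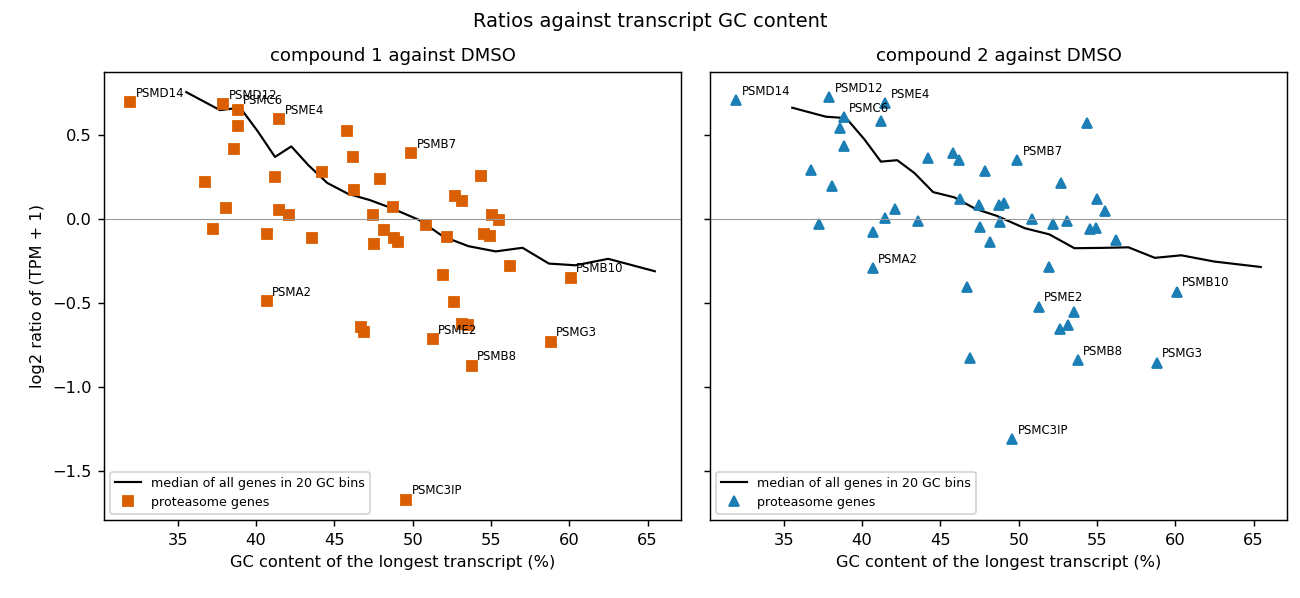
Log2 ratio of TPM + 1 against the GC content of the longest transcript for the 48 proteasome genes, compound 1 (left) and compound 2 (right) against DMSO; the line joins the medians of all genes in 20 GC bins. PSMD14, PSMD12, PSMC6 and PSME4 lie in the GC-poor range where the line is also high, and PSMC3IP, PSMB8 and PSMG3 lie below the line.

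None of the 7 alpha subunits of the constitutive core was past 1.5-fold, with median log2 ratios of 0.02 after compound 1 and 0.06 after compound 2. These medians were below 0 under the 2 other library scalings (-0.09 and -0.03 by median of ratios) and with the trend of the longest transcript subtracted (-0.44 and -0.33), and above 0 with that of the principal transcript (0.17 and 0.35). Under the principal trend PSMA5 was past 1.5-fold downward (-0.79 and -0.65). PSMA1 stood highest among them, at 251, 325 and 320.1 TPM in the DMSO, compound 1 and compound 2 libraries (log2 ratios 0.37 and 0.35). PSMA2 stood lowest, at 282, 201 and 230.4 TPM (-0.49 and -0.29). PSMA2 passed 1.5-fold with the trend of the longest transcript subtracted (-1.03 and -0.82), and after compound 1 alone with the principal one (-0.77 and -0.54). An overlapping gene on the same strand holds 47.7% of the 31-mers of PSMA1 and was itself at most 0.251 TPM. A like gene at PSMA2 was at 21.8 to 24.2 TPM. The other 5, PSMA3 to PSMA7, had log2 ratios between -0.06 and 0.29. PSMA7 was the most abundant of the ring in every library, at 493, 492 and 509 TPM. With the trend of the longest transcript subtracted PSMA7 was at 0.54 and 0.59, past 1.5-fold upward after compound 2. By the principal transcript it was at 0.46 and 0.50, within 1.5-fold.

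Among the 7 constitutive beta subunits, 6 were below their DMSO level after either compound. Of all genes, 55.7% were above theirs after compound 1 and 54.8% after compound 2. The median log2 ratio of the 7 was -0.09 after compound 1 and -0.08 after compound 2. It turned to 0.02 and 0.03 with the trend of the longest transcript subtracted and to 0.25 and 0.24 with that of the principal one. PSMB3, a structural beta subunit (ENSG00000277791, GRCh38 chr17:38752736-38764231), was at 1124, 728 and 765 TPM. Its log2 ratios were -0.63 and -0.55, so only the first passed 1.5-fold, and with the trend subtracted they were at most 0.13 below 0. PSMB7, which carries the trypsin-like activity, was the exception above DMSO, at 465, 611 and 594 TPM (0.39 and 0.35), and was past 1.5-fold with the trend of the longest (0.84 and 0.82) or principal transcript subtracted (0.69 and 0.73). PSMB5, the chymotrypsin-like subunit and main target of bortezomib, was at 469, 372 and 385 TPM (-0.33 and -0.29). PSMB6, the caspase-like subunit, was at 546, 515 and 524 TPM (-0.08 and -0.06). PSMB1, PSMB2 and PSMB4 had log2 ratios between -0.14 and -0.01.

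All 3 immunoproteasome subunits were measured in this epithelial line and were lower after each compound, where 55.7% and 54.8% of all genes were higher. PSMB8 (ENSG00000204264, GRCh38 chr6:32840717-32844703) was at 143 TPM under DMSO, 77.9 TPM under compound 1 and 79.7 TPM under compound 2. PSMB9 (ENSG00000240065, chr6:32844136-32859585) was at 29.4, 18.1 and 16.2 TPM, and PSMB10 (ENSG00000205220, chr16:67934502-67937087) at 117, 91.9 and 86.6 TPM. The DMSO library was the highest of the 3 for each gene, and the compound libraries lay close together. PSMB8 and PSMB9 passed 1.5-fold in both comparisons (-0.87 and -0.84 for PSMB8, -0.67 and -0.83 for PSMB9), and PSMB10 in neither (-0.35 and -0.43). With the trend subtracted, PSMB10 was at or above 0 (0.15 and 0.00 by the longest transcript, 0.21 and 0.10 by the principal one). PSMB8 then lay between -0.55 and -0.36, and PSMB9 between -0.70 and -0.14. PSMB9 overlaps PSMB8 and the peptide transporter gene TAP1, each on the opposite strand. With the strand setting of the counting not stated, reads from the shared stretches cannot be told apart. PSMB10 shares 41.5% of its 31-mers with an overlapping gene that was at 2.30 TPM or less. Leukocytes normally use the immunoproteasome as their main form, and of their markers LYZ was at 1.86, 1.52 and 0.083 TPM in the DMSO, compound 1 and compound 2 libraries. PTPRC was at most 0.269 TPM, CD3E at most 0.255 TPM, ITGAM at most 0.498 TPM and CD14 at most 0.809 TPM.

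Each immunoproteasome subunit takes the place of 1 constitutive subunit, so the level of each pair was compared within a library. PSMB8 stood at 30.6% of PSMB5 under DMSO, 20.9% under compound 1 and 20.7% under compound 2. PSMB10 stood at 25.2% of PSMB7, then 15.03% and 14.6%. PSMB9 stood at 5.39% of PSMB6, then 3.51% and 3.08%. Summed over the 3 pairs, the immunoproteasome subunits were at 19.6%, 12.5% and 12.1% of the constitutive ones. The ratio of every pair was thus lower after each compound, with log2 changes between -0.54 and -0.74 after compound 1 and between -0.55 and -0.78 after compound 2. With the trend subtracted the changes were between -1.02 and -0.39 after compound 1 and between -1.19 and -0.37 after compound 2. The direction was thus the same for all 3 pairs under each of these settings. Both sides of the PSMB10 pair differed from DMSO, PSMB10 at -0.35 and -0.43 and PSMB7 at 0.39 and 0.35. With either trend subtracted PSMB10 was at or above 0, so the lower ratio of that pair then lay with the higher PSMB7.

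**Figure D4:**
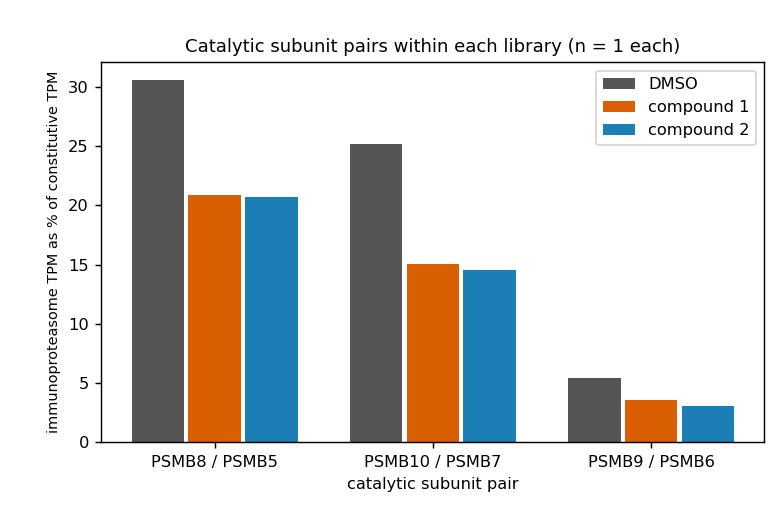
Level of each immunoproteasome catalytic subunit as a percentage of the constitutive subunit it replaces, within the DMSO, compound 1 and compound 2 libraries (1 library each). All 3 percentages are highest in the DMSO library, at 30.6%, 25.2% and 5.39%.

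PSME1 and PSME2 form the interferon-inducible activator cap that often accompanies the immunoproteasome. PSME1 (ENSG00000092010, chr14:24136158-24138967) was at 270.3, 175 and 175 TPM in the DMSO, compound 1 and compound 2 libraries, with log2 ratios of -0.62 and -0.63. PSME2 (ENSG00000100911, chr14:24143362-24147570) was at 412, 251 and 287 TPM (-0.71 and -0.52). With the trend subtracted they lay between -0.47 and -0.05, within 1.5-fold. EMC9 overlaps PSME1 on the opposite strand and was at 37.7, 15.01 and 18.1 TPM. PSME3, the nuclear activator of the same family, was at 209, 189 and 223 TPM (-0.14 and 0.10). PSME4, which encodes a large single-chain activator (ENSG00000068878, chr2:53864067-53970840), went the other way, at 35.3, 53.8 and 57.5 TPM (0.60 and 0.69). Its longest transcript, of 7099 bases, is the longest of all members, and with the trend subtracted its ratios lay between -0.09 and 0.10. The inhibitor gene PSMF1 was near level, at 122, 125 and 129.7 TPM.

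Promoter sequence was compared because the genes for the immunoproteasome and its cap all stood below DMSO in these libraries. RefSeq windows on GRCh38.p14, from 250 bases before to 50 bases after each start, were at hand for 44 of the 50 genes, all but PSMA7, PSMB1, PSMB6, PSMB7, PSMD4 and PSMG3. The interferon regulatory factor motif (GAAA, any 2 bases, GAAA), read on both strands, occurred in 7 of these 44 (15.9%), in 3.79% of 9445 measured genes with a window and in 3.57% of all 35116 windows. The 7 were PSMB8, PSMB10, PSME1, PSME2, PSMG4, PSMA4 and PSMB4, of which PSMA4 and PSMB4 stayed within 0.14 of their DMSO level on the log2 scale. PSMB9 had no match in its window. The windows are shown 5′ to 3′ on the strand of the gene, with a match, in either orientation, in capitals.
PSMB8 (chr6:32843998-32844297, minus strand): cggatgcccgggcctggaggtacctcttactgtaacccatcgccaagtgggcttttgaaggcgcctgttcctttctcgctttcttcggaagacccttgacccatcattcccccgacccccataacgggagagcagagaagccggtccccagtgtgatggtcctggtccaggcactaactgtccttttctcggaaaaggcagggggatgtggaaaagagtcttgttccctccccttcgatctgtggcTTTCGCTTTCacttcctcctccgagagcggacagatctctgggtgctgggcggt
PSMB10 (chr16:67936801-67937100, minus strand): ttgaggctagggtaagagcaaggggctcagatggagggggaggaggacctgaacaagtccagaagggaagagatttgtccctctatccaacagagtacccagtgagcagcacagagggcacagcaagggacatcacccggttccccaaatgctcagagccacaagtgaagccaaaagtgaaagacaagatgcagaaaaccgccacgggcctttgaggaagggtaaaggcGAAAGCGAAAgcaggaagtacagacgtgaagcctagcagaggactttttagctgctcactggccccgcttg
PSME1 (chr14:24135944-24136243, plus strand): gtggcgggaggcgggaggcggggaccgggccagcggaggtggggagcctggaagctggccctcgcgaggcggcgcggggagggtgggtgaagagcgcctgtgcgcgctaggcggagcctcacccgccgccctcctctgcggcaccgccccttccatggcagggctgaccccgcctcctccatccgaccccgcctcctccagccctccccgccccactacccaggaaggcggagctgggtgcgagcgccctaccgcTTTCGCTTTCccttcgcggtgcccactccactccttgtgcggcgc
PSME2 (chr14:24146561-24146860, minus strand): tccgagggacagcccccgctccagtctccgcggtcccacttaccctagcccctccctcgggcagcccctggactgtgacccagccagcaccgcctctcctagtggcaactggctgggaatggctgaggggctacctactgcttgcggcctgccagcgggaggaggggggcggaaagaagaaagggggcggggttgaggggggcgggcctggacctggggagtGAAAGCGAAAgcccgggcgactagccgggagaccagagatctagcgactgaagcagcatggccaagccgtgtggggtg
PSMB9 (chr6:32853942-32854241, plus strand): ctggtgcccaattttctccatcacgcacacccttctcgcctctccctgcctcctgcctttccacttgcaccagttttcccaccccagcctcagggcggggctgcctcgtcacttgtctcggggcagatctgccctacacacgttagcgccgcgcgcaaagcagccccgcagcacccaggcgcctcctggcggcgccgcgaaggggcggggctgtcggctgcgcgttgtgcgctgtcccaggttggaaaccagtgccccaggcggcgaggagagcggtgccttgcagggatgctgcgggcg
A match is a stretch of letters and does not show that a factor binds there.

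The PSMB9 start shown lies 488 bases from a start of TAP1 on the opposite strand, and that stretch is known as a shared promoter. TAP1 was at 17.1, 38.6 and 33.5 TPM (log2 ratios 1.13 and 0.93), so it stood above DMSO where PSMB9 stood below. Of 12 class I loading genes, 5 (41.7%) were past 1.5-fold upward after either compound and 0 downward, where 28.2% and 25.6% of all genes were higher. Their median log2 ratio was 0.56 after compound 1 and 0.50 after compound 2. With the longest trend subtracted 4 were past it and the medians were 0.33 and 0.39; with the principal trend 5 and 6 were, at 0.40 and 0.49. HLA-B was at 38.0, 78.9 and 76.1 TPM (1.04 and 0.98). IRF1, the interferon regulatory factor known to activate the PSMB8 and PSMB9 genes, was at 60.7, 53.2 and 51.3 TPM (-0.19 and -0.24).

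Over the 17 members of the 19S particle the median log2 ratio was 0.24 after compound 1 and 0.28 after compound 2, with 3 genes (17.6%) at least 1.5-fold higher and 0 lower in each comparison. That share is below the 28.2% and 25.6% of all genes that were higher. The summed level of the 17 was 0.622 of that of the 14 constitutive core genes under DMSO, 0.769 under compound 1 and 0.785 under compound 2. The 19S sum was 3650, 4204 and 4387 TPM in the same order, and the core sum 5864, 5469 and 5591 TPM. Within the core sum, PSMB3 alone was at 1124, 728 and 765 TPM. With the trend subtracted, the 19S median was 0.13 and 0.19 by the longest transcript, where the core had -0.08 and -0.01. By the principal transcript it was 0.24 and 0.30, where the core had 0.19 and 0.26, so the medians of the particles lay close together under that setting.

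Of the 3 higher genes, 2 belong to the lid. PSMD14, the metalloprotease that cuts the ubiquitin chain from the substrate (ENSG00000115233, chr2:161308038-161411717), was at 188, 305 and 308 TPM in the DMSO, compound 1 and compound 2 libraries. Its log2 ratios were 0.70 and 0.71. By the longest transcript, with a GC content of 32.0%, the trend took them to -0.05 and 0.02, whereas by the principal transcript, with 45.3%, they were 0.73 and 0.72. PSMD12 (ENSG00000197170, chr17:67337916-67366627), a scaffold subunit, was at 96.2, 155 and 159.6 TPM (0.68 and 0.72), and lay between -0.04 and 0.15 with either trend subtracted. PSMD7, the partner of PSMD14 in the deubiquitinating pair, was at 231, 333 and 304 TPM (0.52 and 0.40). Its transcript has 45.8% GC, and with the trend subtracted it lay between 0.50 and 0.70, past 1.5-fold in 3 of 4 values. PSMD6 was at 111, 148 and 162 TPM (0.42 and 0.54), with -0.21 and -0.02 by the longest and 0.55 and 0.66 by the principal trend. PSMD13, the lowest of the lid, was at 209, 194 and 206 TPM (-0.11 and -0.02). PSMD3, PSMD8 and PSMD11 had log2 ratios between 0.02 and 0.28. The median of the 8 lid genes was 0.33 after compound 1 and 0.34 after compound 2. It was 0.07 and 0.13 with the longest trend subtracted and 0.43 and 0.46 with the principal one.

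The base was divided. Of its 6 ATPases, PSMC6 (ENSG00000100519, chr14:52707172-52728587) passed 1.5-fold, at 96.1, 152 and 147 TPM in the DMSO, compound 1 and compound 2 libraries (0.65 and 0.61). PSMC2 followed at 143, 211 and 194 TPM (0.56 and 0.43). Both have a longest transcript with a GC content near 39% (38.8% and 38.9%), and with either trend subtracted their ratios lay between -0.04 and 0.19. PSMC3 was the lowest, at 196, 162 and 179.8 TPM (-0.28 and -0.12). PSMC1, PSMC4 and PSMC5 had log2 ratios between -0.15 and 0.09, and the median of the 6 was -0.01 and 0.02 (0.09 and 0.15 by the longest trend, 0.16 and 0.23 by the principal one). PSMD2, the docking subunit for ubiquitin receptors and the most abundant base gene after either compound, was at 416, 498 and 618 TPM (0.26 and 0.57). After compound 2 it was past 1.5-fold with either trend subtracted (0.68 and 0.63). PSMD1, its structural counterpart, was at 128, 156 and 165 TPM (0.28 and 0.36). The ubiquitin receptor PSMD4 was at 328, 353 and 325 TPM (0.11 and -0.01). Part of the sequence of 3 base genes is shared with processed pseudogenes, 37.4% of the 31-mers of PSMD4 with PIPSL, 28.6% of those of PSMC1 with PSMC1P1 and 19.3% of those of PSMD2 with a further copy, so their values are uncertain.

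The promoter windows of PSMD14 and PSMD12 are shown as those of the highest lid genes. Each holds the ETS motif CCGGAAG, which occurred in 17 of the 44 proteasome genes with a window (38.6%), in 24.0% of measured genes and in 10.3% of all windows. Of the other members with it, PSMC2, PSMC6, PSMD6, PSMD7 and PSME4 had log2 ratios between 0.40 and 0.69 against DMSO. PSMC3IP (-1.67 and -1.31) and PSMG4 (-0.49 and -0.65) stood below DMSO. PSMA6, PSMC1, PSMD8, PSMD9, PSMD13, PSME3IP1 and PSMF1 lay between -0.11 and 0.20, and PSMA8 was at 0 TPM. Whether the motif bears on any ratio was not tested. The match is again in capitals, in either orientation.
PSMD14 (chr2:161308175-161308474, plus strand): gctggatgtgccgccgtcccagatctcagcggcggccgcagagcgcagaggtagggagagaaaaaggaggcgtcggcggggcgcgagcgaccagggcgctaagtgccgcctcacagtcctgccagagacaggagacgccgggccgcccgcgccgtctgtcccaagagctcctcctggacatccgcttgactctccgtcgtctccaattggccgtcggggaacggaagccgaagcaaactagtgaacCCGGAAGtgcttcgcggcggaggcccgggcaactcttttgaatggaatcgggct
PSMD12 (chr17:67366528-67366827, minus strand): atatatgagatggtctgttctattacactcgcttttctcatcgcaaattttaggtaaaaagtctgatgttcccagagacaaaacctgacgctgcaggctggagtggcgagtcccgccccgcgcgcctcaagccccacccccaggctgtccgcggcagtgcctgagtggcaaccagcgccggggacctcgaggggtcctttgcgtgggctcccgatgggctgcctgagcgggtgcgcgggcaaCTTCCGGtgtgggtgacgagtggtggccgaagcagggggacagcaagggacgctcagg
The other motifs were searched on both strands too, and shares follow for the proteasome genes, the measured genes and all windows. The core of the antioxidant response element, TGACNNNGC, through which NFE2L1 acts, occurred in 15 of 44 proteasome genes (34.1%, 19.5% and 13.3%). The CCAAT box (CCAAT) occurred in 22 (50%, 43.6% and 34.6%), and the GC box (GGGCGG) in 31 (70.5%, 78.1% and 45.0%). The STAT motif TTCNNNGAA occurred in 8 (18.2%, 8.63% and 7.66%), and the nuclear respiratory factor 1 motif (GCGCA, any base, GCGC) in 5 (11.4%, 14.1% and 5.78%). The TATA box (TATAAA) occurred in 5 (11.4%, 8.19% and 11.5%), and the AP-1 motif TGACTCA in 3 (6.82%, 4.81% and 4.95%). The kB motif (GGGA, any base, TTTCC) occurred in 0 of the 44, in 0.783% of measured genes and in 0.558% of all windows. CCAAT and GGGCGG are short enough to occur in many windows of this length.

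Chaperones come in sets for the core and for the 19S particle. The 4 PSMG genes, whose products pair up to start the alpha ring, were all below their DMSO level after either compound. Of all genes, 55.7% and 54.8% were above theirs. The PSMG medians were -0.57 after compound 1 and -0.53 after compound 2. These medians were -0.38 and -0.35 with the longest trend subtracted and -0.13 and -0.28 with the principal one. PSMG3 (ENSG00000157778, chr7:1567330-1571005) was at 95.4, 57.2 and 52.3 TPM (-0.73 and -0.85), past 1.5-fold in both as deposited and in neither with a trend subtracted (-0.44 to -0.25). PSMG1 (ENSG00000183527, chr21:39174769-39183851) was at 94.4, 60.1 and 71.3 TPM (-0.64 and -0.40), past it after compound 1. PSMG4, the partner of PSMG3 (ENSG00000180822, chr6:3231403-3303373), was at 22.8, 15.9 and 14.1 TPM (-0.49 and -0.65), past it after compound 2. PSMG2, the partner of PSMG1, was at 72.5, 67.5 and 71.2 TPM (-0.10 and -0.03), and stood above 0 with the trend subtracted, between 0.25 and 0.34. The other 3 PSMG genes were below 0 with either trend subtracted, where PSMG4 ranged from -0.75 to -0.004. Among chaperones of the 19S base, PSMD5 was at 51.9, 62.1 and 78.5 TPM (0.25 and 0.59), past 1.5-fold after compound 2. That call was lost under both scalings (0.50 and 0.48) and both trends (0.33 and 0.24), and after compound 1 the trends turned its direction (-0.08 and -0.15). PSMD9 and PSMD10 stayed between -0.03 and 0.05.

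**Figure D5:**
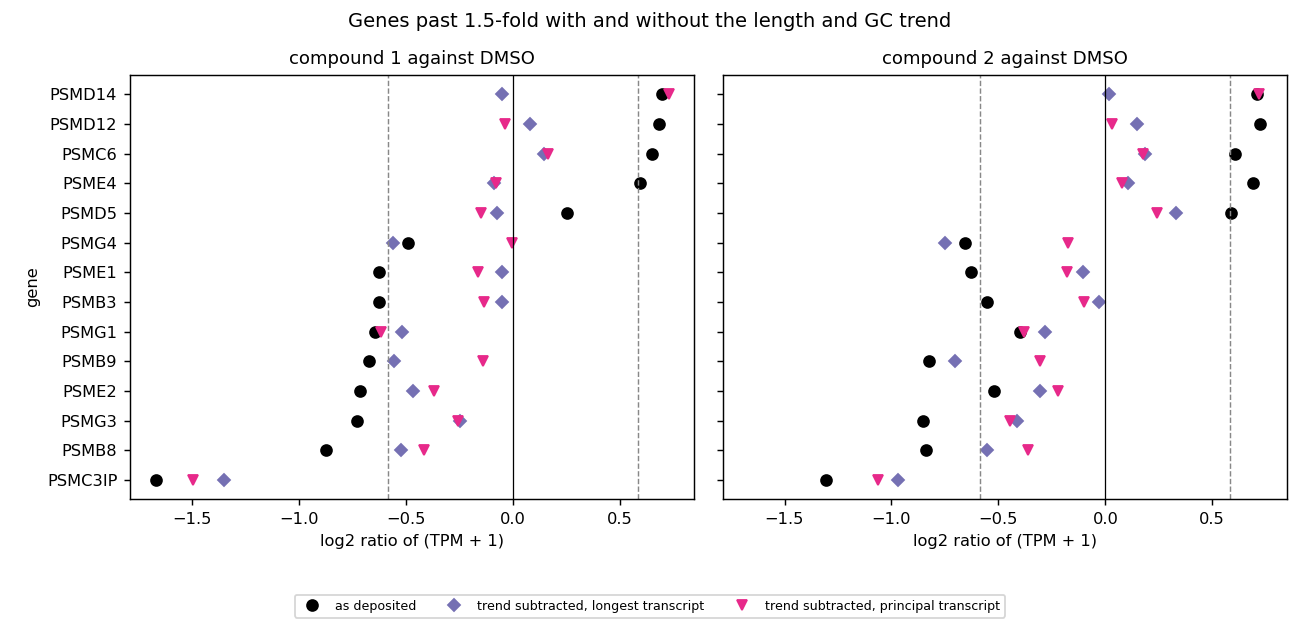
Log2 ratio of TPM + 1 for the 14 proteasome genes past 1.5-fold in at least 1 comparison with DMSO, as deposited (circles) and after subtracting the length and GC trend by the longest (diamonds) or principal (triangles) transcript. Of 12 genes called after compound 1, 1 stays past the dashed 1.5-fold line by the longest transcript and 3 by the principal one; of 11 after compound 2, 3 and 2 stay.

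Among the symbols, 2 match the rule without encoding a subunit or chaperone. PSMC3IP, a partner of the meiotic recombinases that was named for binding PSMC3 (ENSG00000131470, chr17:42572315-42577831), was at 28.96, 8.42 and 11.1 TPM in the DMSO, compound 1 and compound 2 libraries. Its log2 ratios of -1.67 and -1.31 were the lowest of all 48, and remained between -1.50 and -0.97 with the trend subtracted. By the estimated depth of the libraries these values rest on about 352, 110 and 127 reads. MLX overlaps it on the opposite strand and was at 101, 89.1 and 91.5 TPM. PSME3IP1, which binds PSME3, was at 167, 189 and 182 TPM (0.17 and 0.12).

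Between the compounds, at matched dose and time, no proteasome gene was past the threshold. Of the 48, 0 were at least 1.5-fold higher or lower after compound 2 than after compound 1, where 2.59% of all genes were higher and 3.14% lower. No member passed 2-fold, which 0.845% of all genes did. The median log2 ratio of compound 2 to compound 1 was 0.05, beside -0.01 for all genes. The largest differences were those of PSMC3IP (0.36), PSMD5 (0.33), PSMD2 (0.31), PSMG1 (0.24) and PSME3 (0.24), and at the other end of PSMG4 (-0.16) and PSMB9 (-0.15). This was 1 pair of compounds with 1 library each, so neither a difference nor likeness of action can be tested.

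Regulators of proteasome gene expression were also read, in 1 list with genes of their processing such as SEL1L and SYVN1. Of the 10 genes in this list, 9 (90%) were at least 1.5-fold higher after compound 1 and 7 (70%) after compound 2. Of all genes, 28.2% and 25.6% were, and 0 of the list were lower. With the longest trend subtracted 7 and 5 were higher, and with the principal trend 7 and 7. As deposited they had median log2 ratios of 1.04 and 0.87 (0.86 and 0.61 with the trend of the longest transcript subtracted). NFE2L1 itself was at 104, 169 and 124 TPM (0.70 and 0.25), and its relative NFE2L2, the master factor of antioxidant genes, at 98.2, 199 and 179.8 TPM (1.01 and 0.87). Their small MAF partners were all past 2-fold: MAFG was at 8.66, 30.3 and 25.6 TPM (1.69 and 1.46), MAFF at 19.8, 51.7 and 49.97 TPM (1.34 and 1.29), and MAFK at 24.3, 52.9 and 52.2 TPM (1.09 and 1.07). SEL1L, of the machinery that exports proteins from the endoplasmic reticulum for degradation, was at 9.29, 33.9 and 30.99 TPM (1.76 and 1.64). SYVN1, the ubiquitin ligase of that machinery, was at 24.0, 51.2 and 34.4 TPM (1.06 and 0.50).

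Of 12 proteasome components and partners outside the symbol rule, 4 (33.3%) were past 1.5-fold upward after either compound, near the 28.2% and 25.6% of all genes, and 0 downward (medians 0.42 and 0.29). The medians were 0.10 and 0.13 with the longest trend subtracted and 0.05 and -0.02 with the principal one. Past 1.5-fold upward after either compound were then 3 genes by the longest trend and 2 by the principal one. With either trend, 2 genes after compound 1 and 1 after compound 2 were past it downward. The core chaperone POMP was at 189, 187 and 217 TPM (-0.02 and 0.20), the ubiquitin receptor ADRM1 at 367, 405 and 439 TPM (0.14 and 0.26), and the small lid subunit SEM1 at 216, 173 and 194 TPM (-0.32 and -0.15). ZFAND2A, a stress-induced partner of the 19S particle, was at 51.3, 111 and 97.98 TPM (1.09 and 0.92), and ZFAND5, an activator of the proteasome, at 169.9, 343 and 275 TPM (1.01 and 0.69). Of the enzymes that activate ubiquitin, UBA1 was near level (-0.10 and 0.06), whereas UBA6 was at 8.09, 37.5 and 43.5 TPM (2.08 and 2.29).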

How the data were processed

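RNA was taken from HCC827 cells with Trizol and built into libraries with an Illumina TruSeq kit, per the labels' protocols. Bowtie 0.12.2 and the builds GRCh38.p12 and mm8 were listed without a role, per the submitters' processing notes. Which annotation and strand setting were used is not given in the sources used here. Files from the authors hold 1 deposited value per gene and library under headers naming FPKM, but each column sums to 1000000, so the deposited values are on the TPM scale and were treated as TPM. One read per kb was worth about 0.117, 0.108 and 0.124 TPM in the DMSO, compound 1 and compound 2 libraries, estimated from low genes with a single annotated transcript. Between 53.4% and 57.7% of these values lay within 0.1 of whole reads at the fitted step.

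Log2 ratios of TPM + 1 were computed with Python 3.11.15 and pandas 2.3.3 for the 11600 genes whose mean reached 1 TPM. With 1 library per group no test, SD or p-value was computed, and calls at 1.5-fold and 2-fold are counts, given with the share of all genes where a whole set or list is counted. The computing of ratios and 1.5-fold calls was tested on simulated data with known fold changes. GENCODE 29 on GRCh38 held 20113 of the 20332 genes and gave coordinates, lengths and GC content; 11542 of the measured genes had a longest transcript there and 11531 a principal one. Length and GC trends were removed as medians of 20 bins each. Shared sequence is the percentage of a gene's 31-mers found in any other GENCODE gene or in the one named. Promoter windows are RefSeq's, and for a gene with several starts the window with most matches is shown. The members, lists, motifs and threshold were chosen with earlier results of these data known. Genes with values were the ends of each class, members past 1.5-fold, PSMB5 to PSMB10 and members under 1 TPM, further members added to complete a class, and, of the other lists, 6 fixed genes and those past 2-fold; UBA1 was added after its values were seen. Some genes of the lists are not reported here. Alternatives were 2 other pseudocounts, 2 other filters, 2 scalings, the trend by the longest transcript, and 2 narrower sets of members. The trend by the principal transcript, and the scalings and trends for the subunit pairs, were added after seeing the data.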

Additional observations from a re-analysis of the deposited data

How the results depend on the processing

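A median was taken as moved when it shifted by 0.1 or more on the log2 scale, and a count when it differed by more than 1.5 times. Of 102 values recomputed for the member medians, the counts of called members and the subunit pairs, 84 did neither. Some of the 84 could hardly move. The filter at a mean of 5 TPM kept the same 48 members. Scaling a library changes the ratio of a subunit pair within it only through the pseudocount. For compound 1 against DMSO the member median was -0.13 under median-of-ratios and upper-quartile scaling and 0.13 with the trend of the principal transcript subtracted. The count of higher members was 1 under either scaling and 2 with the trend of the longest transcript subtracted. The count of lower members was 2 and 4 with the trends of the longest and principal transcript subtracted, and 5 without assembly factors and non-subunits. For compound 2 against DMSO the median was -0.10 under upper-quartile scaling and 0.16 with the trend of the principal transcript subtracted. The count of higher members was 3 under either scaling, and that of lower members was 2 with the principal trend subtracted and 3 without assembly factors and non-subunits. The median change of the subunit pairs was -0.64 after compound 2 at a pseudocount of 5, and -0.47 and -0.62 after compound 1 and compound 2 with the principal trend subtracted. The counts without assembly factors and non-subunits are lower because called members were among those left out. These were PSMG1, PSMG3 and PSMC3IP after compound 1, and PSMG3, PSMG4 and PSMC3IP after compound 2. For the other moved values the cause was not tested. Called members that changed sign were PSMD14 and PSME4 by the longest transcript and PSMD12 and PSME4 by the principal one, all after compound 1. No replicate could be left out, since each group has 1 library. No paired analysis was possible because each group has 1 library. TPM keeps no counting error, so small differences cannot be separated from it.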
